A study of Mus musculus with 6 samples.

Results

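The data described here are the RNA levels of 53 genes of the G2 phase and of mitosis in mouse pulmonary microvascular endothelial cells, measured by sequencing. The 53 genes were chosen by name, with earlier results of these data known. All 53 were present among the 55232 features of the deposited count table. All 53 passed the filter on low counts that left 13804 tested features. The endothelial cells, labelled as a cell line, were themselves untreated and were taken from the lower chamber after 12 h of co-culture. For the 3 control samples, the TCMK-1 cells in that co-culture, an epithelial line from mouse kidney tubules, were untreated. For the 3 samples of the repletion group, the TCMK-1 cells were first depleted of ATP and then had it restored, a treatment the labels also call IR. Both groups thus contained TCMK-1 cells, and no sample of endothelial cells cultured alone was analysed here. Whether samples of a group were separate cultures is not said in the labels, so p-values measure the spread between these samples only, which may be technical.

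Cells enter mitosis when cyclin-dependent kinase 1 (CDK1), bound to A- and B-type cyclins, is activated by CDC25 phosphatases. Polo-like and Aurora kinases then drive spindle assembly, the kinetochore ties chromosomes to microtubules, and the spindle checkpoint delays the anaphase-promoting complex, the ubiquitin ligase that starts chromosome separation, until every chromosome is attached. Most of these genes are transcribed late in the cell cycle under the transcription factors FOXM1 and B-MYB and the MuvB complex, through promoter elements known as the cell cycle genes homology region (CHR) and the CCAAT box, and in endothelium their transcripts mark proliferating cells.

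The libraries held 15582349 to 17817618 counts. The 10 endothelial markers summed to 2213 to 2455 CPM (each count relative to the library total) in control, and 2271 to 2623 in the repletion group. Of these, 9 were tested, and 3 rose and 1 fell by the test given below, against 20.5% and 19.2% of all tested features. The defining marker Cldn5 was at or near 0, with at most 0.193 CPM in a library. Of 12 kidney tubular markers, 3 (Slc34a1, Umod and Epcam) were at 0, and the list summed to 8.88 to 12.8 CPM in control, and 18.996 to 27.7 with repletion, with Cubn at 3.03 to 3.90 and 11.5 to 15.6 CPM. Of 8 leukocyte markers, Cd3e and Itgam were at 0, and the sum of 378 to 417 CPM in control and 223 to 311 with repletion was almost entirely Cd68. Of 8 fibroblast and mural markers, Lum was at 0, and the list summed to 20.3 to 22.6 and 17.2 to 25.3 CPM. Of 8 lung epithelial markers, 4 were at 0, and the list summed to 0.224 to 0.925 CPM in control and 0.906 to 1.93 with repletion; Ager, the 1 marker tested, rose. The part of these levels in the results below was not tested.

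Transcripts of many mitotic genes were higher in the repletion group. Of the 53 genes, 28 rose and 1 fell, Pttg1, against 20.5% and 19.2% of all tested features (39.7% in either direction) by edgeR's quasi-likelihood test, at an adjusted p under 0.05 over all features. The rises were modest, from 1.21-fold for Prc1 to 2.48-fold for Aspm, and 2 genes, Aspm and Plk1, at least doubled. The median log2 fold change was 0.33, against 0.00 over all tested features, and 45 of the 53 estimates were above 0. In 31 genes every repletion library lay above every control library, as it did for 25% of all tested features, and in 3 genes (Pttg1, Ccnb2 and Sgo1) every repletion library lay below, as for 25.4%. Together the 53 genes took 0.801% ± 0.0297 of a control library's counts and 1.07% ± 0.0313 of a repletion library's (SD, n = 3). In a bulk sample, more cells in G2 or mitosis and more of these transcripts per cell cannot be told apart.

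The size of the shift depended on whether trends with gene length and GC content were taken out. Gene length here is the feature length of the deposited table, which for the 53 genes is shorter than the span from start to end. Across all tested features with a known GC content, the log2 fold change was related to gene length with a Spearman's rho of 0.20 (n = 13566 genes of the same libraries), and across the 53 genes with a rho of 0.22. When the dependence on gene length and GC content was taken out of each library (below, without the trend), 21 of the 53 genes rose and 2 fell, against 16.2% and 25.7% of all tested features. The median log2 fold change was then 0.19 against -0.09 over all, compared with 0.33 against 0.00 before. The median over all features thus moved down as well. Among all features that passed, 51.6% were higher in the repletion group with the scaling used throughout (trimmed mean of M-values, TMM), 59.4% with library size only, 38.6% without the trend and 41.3% when only the GC part of it was taken out. The 7 genes that no longer passed without the trend, Anln, Top2a, Mki67, Cenpe, Kif23, Tpx2 and Prc1, have feature lengths of 4677 to 10061 bases. Of these, Tpx2 still passed when only the length part was taken out. Cenpf, Aspm and Kif14 have larger feature lengths (15433, 11590 and 10358 bases) and still passed without the trend.

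**Figure D1:**
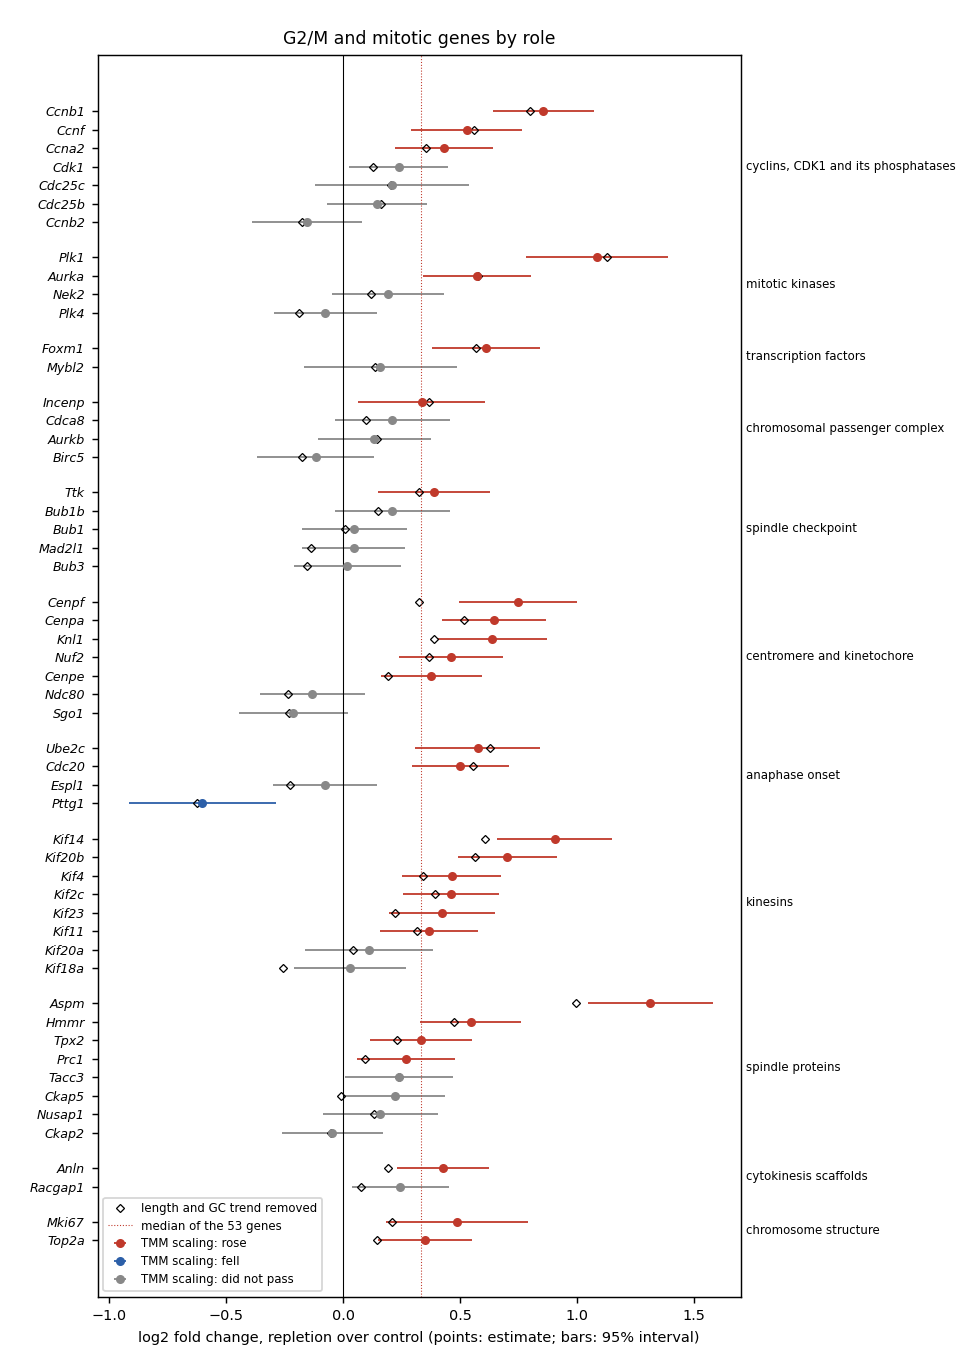
Log2 fold change of repletion over control for the 53 genes, grouped by role; filled points are estimates with TMM scaling and 95% intervals, and open diamonds are estimates without the length and GC trend. Aspm, Plk1, Kif14 and Ccnb1 lie farthest to the right, Pttg1 is the single gene that fell, and most spindle checkpoint genes lie near 0.

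Promoters of these genes are shown for the elements that late cell cycle genes are known to carry. The 53 genes were chosen by name as genes of G2 and mitosis. Shares above those of all promoters were thus likely whatever the groups showed. The part of these elements in the rise was not tested. RefSeq windows on GRCm38.p6, from 250 bases before to 50 after a transcription start, were found for 46 of the 53 genes, in 48 windows, and none was found for Aurkb, Ccna2, Cdc25c, Foxm1, Incenp, Kif20a and Tpx2. The CHR was searched as TTTGAA or TTCGAA and the CCAAT box as CCAAT, each on both strands, so that TTCAAA and ATTGG are the same elements read from the other strand; matches of different elements may share bases. A CHR match lay in 36 of the 48 windows (75.0%), against 19.2% of all 32851 promoter windows, and a CCAAT match in 34 (70.8%), against 37.4%. Both lay in 31 windows (64.6%), against 7.52% of all. Of the 25 windows of genes that rose, 22 had a CHR match and 20 a CCAAT match, and of the 22 windows of genes that did not pass, 14 and 14 did; this difference was not tested. The window of Pttg1 had neither. Of the 34 genes with a CHR match, 30 had one that began within 50 bases of the start. A match is a run of letters and does not show that a factor binds there.

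Shown as examples are 3 genes that rose and that hold both elements in the 100 bases before the RefSeq start or, where it lies further upstream, the start in the deposited table, printed 5′ to 3′ on the gene's strand with the matches in capitals. They are Cdc20 (chr4:118437353-118437452, minus strand), Kif11 (chr19:37376282-37376381, plus strand) and Top2a (chr11:99024190-99024289, minus strand). In Top2a, 3 CCAAT matches precede a CHR match, and in Cdc20 and Kif11 1 CCAAT match precedes it. The Cdc20 stretch ends at the deposited start, and a further CCAAT match between that and the RefSeq start is not printed.
Cdc20: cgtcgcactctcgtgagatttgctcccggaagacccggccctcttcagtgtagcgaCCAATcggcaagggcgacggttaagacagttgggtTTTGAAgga
Kif11: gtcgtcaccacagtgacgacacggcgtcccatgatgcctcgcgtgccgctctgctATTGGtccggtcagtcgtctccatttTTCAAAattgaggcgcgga
Top2a: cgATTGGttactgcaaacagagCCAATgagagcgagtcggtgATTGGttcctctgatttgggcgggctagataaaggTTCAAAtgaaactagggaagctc

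In several of the genes with the smallest p-values the CHR match lies just after the RefSeq start instead. Of the 10 with the smallest p, Ccnb1 had no CHR match in its window, and Foxm1 had no window. The match of Kif14 began at -228 from the start, and that of Cenpa, at 16, is not printed. The matches of Aspm (chr1:139454769-139454794, plus strand), Plk1 (chr7:122159455-122159480, plus), Cenpf (chr1:189688069-189688094, minus), Hmmr (chr11:40733414-40733439, minus), Kif20b (chr19:34922355-34922380, plus) and Knl1 (chr2:119047140-119047165, plus) are shown in capitals with 10 bases on each side; in Kif20b a further match follows directly, in lower case here.
Aspm: aggcgcgataTTTGAAccgagcaaaa
Plk1: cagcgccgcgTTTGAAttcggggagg
Cenpf: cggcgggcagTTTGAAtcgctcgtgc
Hmmr: ttgaggtaaaTTTGAAttcaggcgag
Kif20b: gccgccattgTTTGAAtttgaaaacc
Knl1: ggcggttagaTTTGAAtacttcaggg

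Among the cyclins, CDK1 and the phosphatases that activate it, 3 of 7 genes rose. Ccnb1 (ENSMUSG00000041431, chr13:100778650-100786570 in GRCm38), the gene of cyclin B1, the main partner of CDK1 at mitotic entry, stood at 135, 124 and 119 TMM-scaled CPM in control, and at 215, 242 and 227 in the repletion group. The groups did not overlap, and the gene rose by 0.86 ± 0.10 on the log2 scale (SE; adjusted p 8.07e-06, edgeR, as for every adjusted p below unless another source is named). Transcripts of Ccnb1-ps, Gm12856 and Gm8416 match it at 97.3% to 99.2% identity, so reads could be divided among them, but these held 0.324 to 0.735 CPM each on average against 178 for Ccnb1. Ccnb2, the gene of cyclin B2, gave 114, 91.4 and 93.6 CPM in control and 90.7, 87.0 and 91.2 in the repletion group, with an estimate of -0.15 (95% interval -0.39 to 0.08) that did not pass. The paralogs of cyclin B thus stood on opposite sides of 0, a difference that was not itself tested. Ccna2 (cyclin A2, active from S phase to early mitosis) and Ccnf (cyclin F, a substrate receptor of an SCF ubiquitin ligase) rose by 0.43 and 0.53. Cdk1 itself reached 208 to 244 CPM in the repletion group and 186 to 198 in control, without overlap, with an estimate of 0.24 and an adjusted p of 0.0706; it passed with DESeq2, with library size only and without repletion replicate 2. Cdc25b and Cdc25c had estimates of 0.15 and 0.21 that did not pass.

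Of the 4 mitotic kinases, 2 rose. Plk1 (ENSMUSG00000030867, chr7:122159439-122169873), the polo-like kinase that acts from mitotic entry to cytokinesis, stood at 64.3, 73.4 and 71.6 CPM in control and 172, 108 and 163 in the repletion group. Every repletion library lay above every control library, but replicate 2 was well below the other two repletion libraries. It rose by 1.09 ± 0.14 (log2; adjusted p 2.26e-05). Aurka, the Aurora kinase of centrosomes and spindle poles, rose by 0.57 ± 0.11, from 53.6 to 60.0 CPM in control to 78.9 to 90.1. Plk4, the kinase of centriole duplication, and Nek2, which separates centrosomes, had estimates of -0.08 (95% interval -0.30 to 0.14) and 0.19 (-0.05 to 0.43) and did not pass.

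Of the transcription factors, Foxm1 (ENSMUSG00000001517, chr6:128362967-128376146), a forkhead activator of late cell cycle genes, rose: its libraries gave 138, 162 and 167 CPM in control and 243, 213 and 257 in the repletion group. The groups did not overlap, and Foxm1 rose by 0.61 ± 0.11 (log2; adjusted p 0.000361), or by 0.57 without the trend. Mybl2, which encodes B-MYB, gave 46.8, 61.0 and 61.8 CPM in control, then 77.7, 48.8 and 62.9 in the repletion group. Repletion replicate 2 lay within the range of control and the other two above it, and the estimate of 0.16 (95% interval -0.17 to 0.48) did not pass.

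Of the centromere and kinetochore genes, 5 of 7 rose. Cenpf (ENSMUSG00000026605, chr1:189640606-189688086), a large protein of the outer kinetochore, stood at 103, 124 and 99.6 CPM in control and 182, 160 and 206 in the repletion group, without overlap. Its log2 fold change was 0.75 ± 0.12, but 0.32 without the trend. Its feature length of 15433 bases is the largest among the 53 genes. Cenpa (chr5:30666777-30674830), the histone H3 variant that marks centromeres, rose by 0.64, from 151, 159 and 167 to 220, 268 and 256 CPM. Knl1 (chr2:119047119-119105501), the scaffold that recruits checkpoint proteins to the kinetochore, also rose by 0.64, from 89.1, 90.9 and 78.1 to 120, 144 and 137 CPM, or by 0.39 without the trend. In both genes every repletion library lay above the controls.

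Partners within the NDC80 complex, which binds microtubules, had estimates on opposite sides of 0. Nuf2 rose by 0.46, with 62.8 to 69.7 CPM in control, and 87.1 to 94.96 with repletion, whereas Ndc80, its direct partner, gave 106 to 121 and 94.6 to 110 CPM, an estimate of -0.13 (95% interval -0.36 to 0.09). Their feature lengths are 6341 and 6493 bases and their GC contents 41.7% and 42.4%. The part of these in the estimates and the difference between the genes were not tested. Cenpe, a kinetochore motor, rose by 0.38, or had an estimate of 0.19 that did not pass without the trend. Sgo1, the shugoshin that protects centromeric cohesion, gave 70.9 to 79.97 CPM in control, and 60.8 to 70.4 with repletion; the groups did not overlap, but its estimate of -0.21 had an adjusted p of 0.135.

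Of the 5 spindle checkpoint genes, 1 rose (20.0%, near the 20.5% of all tested features). Ttk, the gene of the kinase MPS1 that starts checkpoint signalling, rose by 0.39 ± 0.11, from 57.2 to 66.7 CPM to 72.7 to 83.9, and did not pass without control replicate 2 or 3 or repletion replicate 3 (adjusted p of 0.00435 to 0.0770 over its alternatives). Bub1, Bub3 and Mad2l1, which form or recruit the inhibitor of the anaphase-promoting complex, had estimates of 0.05, 0.02 and 0.04, with 95% intervals that together span -0.21 to 0.27. Bub1b, which encodes the checkpoint protein BUBR1, stood at 0.21 (-0.04 to 0.45). Small changes either way lie within these intervals, so equal levels are not shown. In the chromosomal passenger complex, which corrects faulty attachments, 1 of 4 genes rose (25.0%, against the same 20.5%). Incenp, its scaffold, rose by 0.34 with an adjusted p of 0.0465. Its groups overlapped (84.4, 95.2 and 106 CPM in control against 134, 96.9 and 130 with repletion), and it failed under 9 of 18 alternative settings (adjusted p of 0.00506 to 0.209 over all 18). Its partners Aurkb, Cdca8 and Birc5 (Aurora B, borealin and survivin) had estimates of 0.13, 0.21 and -0.12 that did not pass.

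Genes of anaphase onset moved in both directions. Cdc20, the activator of the anaphase-promoting complex, rose by 0.50 ± 0.10, from 168, 163 and 177 CPM to 228, 238 and 253. Ube2c, the conjugating enzyme that starts ubiquitin chains for that complex, rose by 0.58 ± 0.13, from 267, 206 and 226 CPM to 307, 415 and 320, with repletion replicate 2 above the others. In both genes the groups did not overlap. Pttg1 (ENSMUSG00000020415, chr11:43420250-43426251), the gene of securin, which holds separase inactive until anaphase, fell by 0.60 ± 0.15: its libraries held 25.5, 22.5 and 21.5 CPM in control and 15.2, 14.7 and 15.9 in the repletion group, or 355 to 401 and 233 to 265 counts. Its adjusted p was 0.00412 (0.000902 to 0.0181 over 18 alternatives, all passed), and without the trend it fell by 0.62. Espl1, the gene of separase itself, had an estimate of -0.08 (95% interval -0.30 to 0.15) and did not pass.

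**Figure D2:**
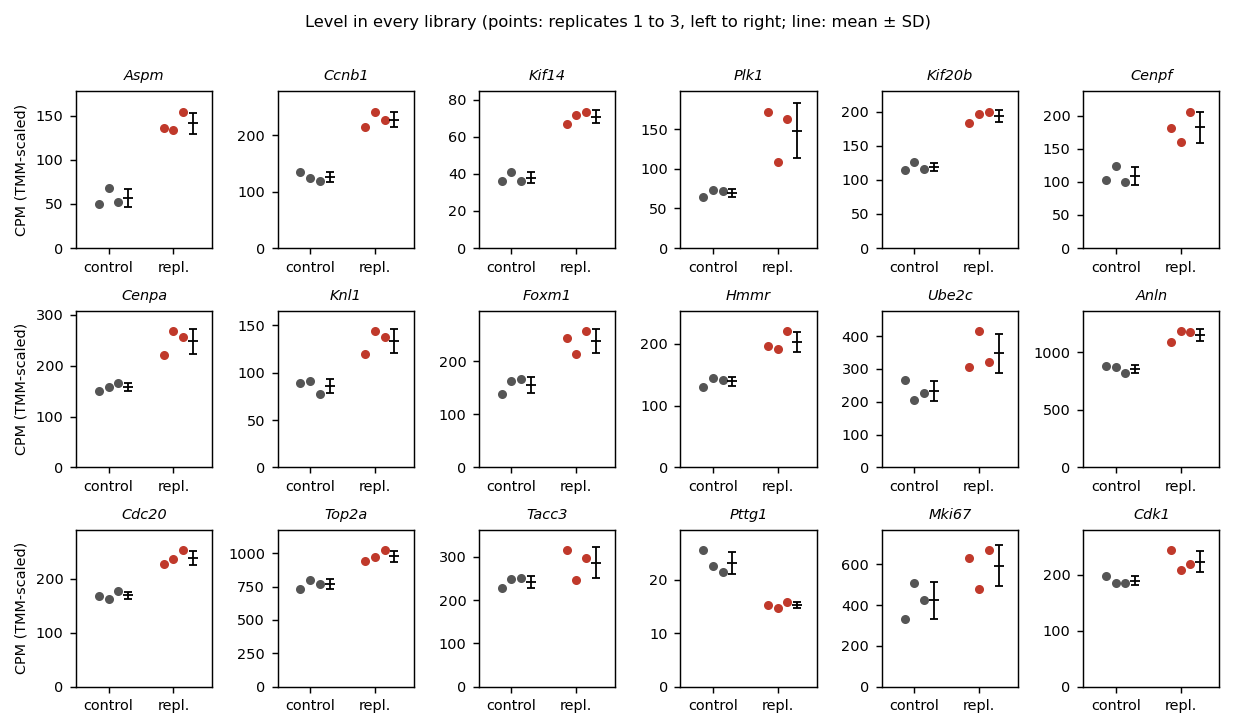
TMM-scaled CPM in each library for 18 genes; grey points are control and red points repletion libraries, with replicates from left to right, and black marks give mean ± SD (n = 3). In Aspm, Ccnb1, Kif14 and Kif20b the groups are far apart, in Plk1 repletion replicate 2 lies at 108 CPM, below the other two, in Mki67 the groups overlap, and Pttg1 is lower in every repletion library.

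The kinesins, motor proteins of the spindle and midzone, rose in 6 of 8 cases. Kif14 (ENSMUSG00000041498, chr1:136466343-136531511), a motor of cytokinesis, went from 36.01, 41.2 and 36.4 CPM to 67.1, 71.9 and 73.6, and rose by 0.90 ± 0.12 (log2; adjusted p 1.64e-05), or by 0.61 without the trend. Kif20b (chr19:34922361-34975745), which acts at the midbody, went from 114, 126 and 116 CPM to 184, 196 and 200, a rise of 0.70 ± 0.10. In both genes the libraries of the groups did not overlap. Kif4, a chromosome-bound motor, and Kif2c, which depolymerizes microtubules at centromeres, rose by 0.46 each, and Kif23, the motor of centralspindlin, and Kif11, which pushes spindle poles apart, rose by 0.42 and 0.37. Kif23 did not pass without the trend (0.22, adjusted p of 0.0815), and Kif11 did not pass without control replicate 3 or repletion replicate 3. Kif20a, the paralog of Kif20b that brings the passenger complex to the midzone, had an estimate of 0.11 (95% interval -0.16 to 0.39). Kif18a, which aligns chromosomes, had 0.03 (-0.21 to 0.27), but fell by 0.26 without the trend (adjusted p 0.0455; 0.0455 to 0.977 over 18 alternatives).

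Spindle proteins included the largest rise of the 53 genes. Aspm (ENSMUSG00000033952, chr1:139454772-139494091), a spindle pole protein that also sets brain size, gave 49.6, 68.3 and 52.6 CPM in control and 136, 133 and 154 in the repletion group. The lowest repletion library was far above the highest control library, and Aspm rose by 1.31 ± 0.13 (log2; adjusted p 9.92e-07). Aspm has a feature length of 11590 bases, and without the trend it rose by 0.997 (adjusted p 7.47e-06). Hmmr, which anchors spindle poles, rose by 0.54 ± 0.10, from 131, 145 and 142 CPM to 196, 192 and 221. Tpx2, the activator of Aurora A on spindle microtubules, and Prc1, which bundles midzone microtubules, rose by 0.33 and 0.27. Neither passed without the trend (estimates of 0.23 and 0.10), and Prc1 passed under 8 of 18 alternatives (adjusted p of 0.0137 to 0.504 over all). Tacc3 gave 227, 249.8 and 250.1 CPM in control against 315, 246 and 297.5 with repletion, so that the groups overlapped in 1 library. Tacc3 and Ckap5, partners that stabilize spindle microtubules, had estimates of 0.24 and 0.22 with adjusted p of 0.0901 and 0.0972; Nusap1 and Ckap2 had 0.16 and -0.05 and did not pass.

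Among cytokinesis scaffolds and chromosome proteins, 3 of 4 genes rose, and these were among the most abundant. Anln, the gene of anillin, which links the contractile ring to the membrane, went from 879, 869 and 818 CPM to 1088, 1184 and 1178, a rise of 0.43 ± 0.09. Top2a, the topoisomerase that untangles sister chromatids, went from 730, 802 and 769 CPM to 938, 972 and 1021, a change of 0.35 ± 0.09. In both genes the groups did not overlap. Mki67, the gene of the proliferation marker Ki-67, gave 333, 511 and 426 CPM in control and 632, 478 and 669 in the repletion group, and although the groups overlapped, it passed, with a rise of 0.49 ± 0.14 (adjusted p 0.0128). Without the trend none of Anln, Top2a and Mki67 passed, with estimates of 0.19, 0.14 and 0.21 and adjusted p of 0.0779, 0.183 and 0.214. Over all their alternatives the adjusted p ran up to 0.0914 for Anln, 0.261 for Top2a and 0.214 for Mki67. Racgap1, the partner of Kif23 in centralspindlin, stood just outside the threshold, with an estimate of 0.24 and an adjusted p of 0.0563. Its groups did not overlap, and it passed under 6 of 18 alternatives. Incenp (0.0465) and Prc1 (0.0384) stood just inside, and passed under 9 and 8 of 18.

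**Figure D3:**
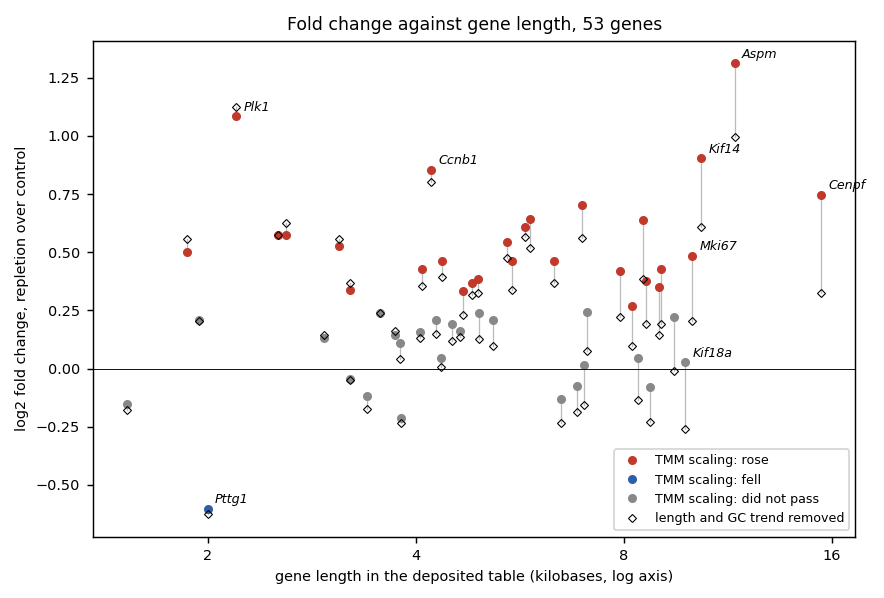
Log2 fold change of repletion over control against gene length for the 53 genes, on a log length axis; filled points use TMM scaling and open diamonds, joined by grey lines, the estimate without the length and GC trend. Genes with a feature length above about 8 kilobases move down most, Cenpf from 0.75 to 0.32, while Plk1 and Pttg1, near 2 kilobases, stay in place.

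Levels of different genes were compared per length, on the authors' deposited FPKM. The 5 most abundant were Ube2c (88.6 ± 11.9 FPKM in control, then 133 ± 23.5 with repletion; SD, n = 3), Anln (93.2 ± 3.55 and 126 ± 6.54), Cdc20 (89.5 ± 3.79 and 128 ± 7.11), Top2a (84.0 ± 3.91 and 108 ± 4.87) and Tacc3 (67.3 ± 3.68 and 80.1 ± 9.62). In control, Ube2c, Anln and Cdc20 lay within their SDs of each other, while Top2a lay below Anln and Tacc3 below the other 4. The lowest means over all 6 libraries were those of Kif14 (3.61 ± 0.275 and 6.81 ± 0.354) and Kif18a (6.63 ± 0.311 and 6.82 ± 0.743). Aspm, at 4.84 ± 0.851 FPKM in control, was below Kif18a there and above it in the repletion group, at 12.1 ± 0.987. In the authors' deposited table, 28 of the 53 genes were higher and 1 lower at their adjusted p under 0.05, against 11.4% and 10.1% of the 24680 features given a p-value there, and Incenp and Racgap1 were the genes called differently from the fit used here.

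Within the repletion group the libraries differed for some genes. Replicate 3 held the highest of the 3 values in 29 of the 53 genes and the lowest in 1, whereas replicates 1 and 2 held the lowest in 25 and 27. Plk1, Mki67, Incenp, Tacc3 and Mybl2 were lowest in replicate 2, within the range of control in all but Plk1, while Ube2c, Ccnb1, Cenpa and Knl1 were highest in that same library. Without repletion replicate 3, 20 genes rose and 1 fell, and of all tested features 2195 rose and 2019 fell. Without repletion replicate 2, 30 of the 53 rose and 1 fell, and of all tested features 2670 rose and 2569 fell. With all 6 libraries, 2830 of all tested features rose and 2654 fell. No called gene changed direction when any library was left out.

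**Figure D4:**
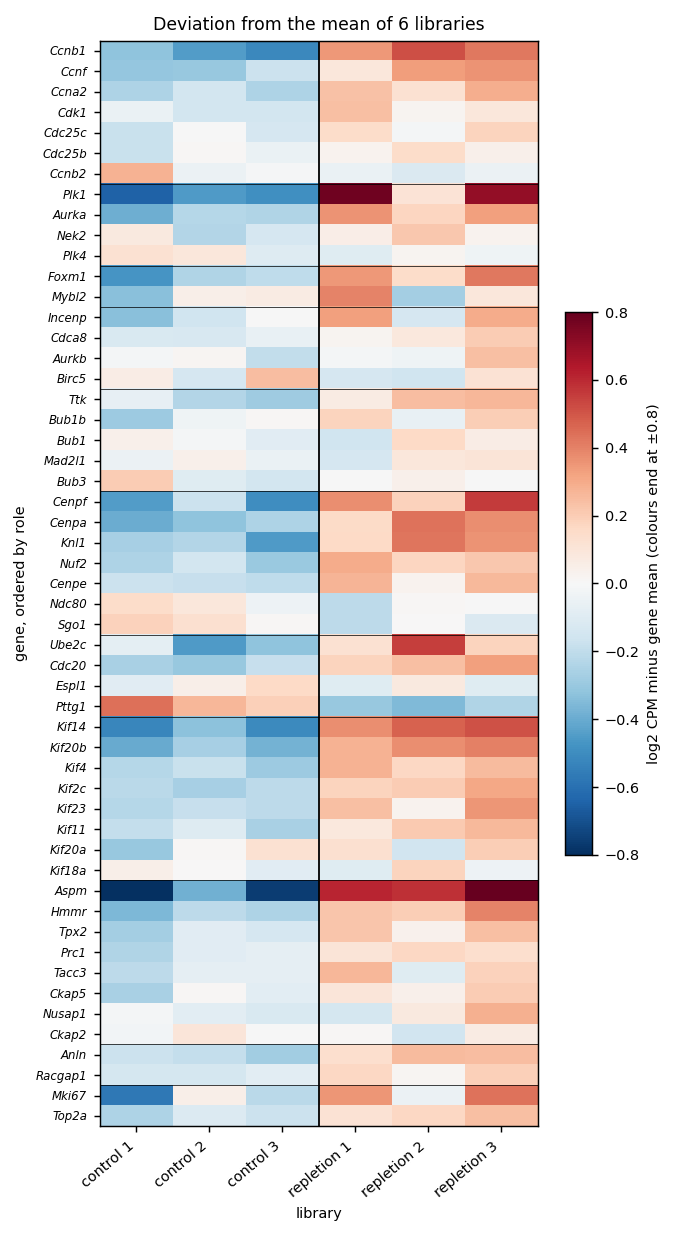
Deviation of log2 CPM from each gene's mean over the 6 libraries, with genes in rows ordered by role and libraries in columns; red is above and blue below the mean. The 3 control columns are mostly blue and the 3 repletion columns mostly red, Pttg1 shows the reverse, and repletion replicate 2 is paler in Plk1 and Mki67 and darker in Ube2c.

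Other genes of the same machinery, from lists that hold none of the 53, are given for comparison. Of 123 tested genes in 7 such lists, 33 rose and 22 fell (26.8% and 17.9%), near the 20.5% and 19.2% of all tested features, with a median log2 fold change of 0.05 that became -0.05 without the trend. Among other regulators of G2 and mitotic entry, 5 of 15 rose and 1 fell (33.3% and 6.67%, against the same 20.5% and 19.2%). Cdkn3, a CDK-associated phosphatase, rose by 1.17 ± 0.16, and Cks2, a CDK1 adaptor, by 0.53. The phosphatase gene Cdc25a rose by 0.51 (0.30 and not passing without the trend). Gtse1, a G2 and S phase protein that restrains p53, fell by 0.63. Of 19 condensin and cohesin genes, 5 rose (26.3%, against 20.5% of all tested features) and none fell; by edgeR, DESeq2 or limma-voom 0 were lower even at an unadjusted p under 0.05. Stag1, a cohesin subunit, rose by 1.02, the cohesin loader Nipbl by 0.58 (0.37 without the trend) and the release factor Wapl by 0.46, and all 5 belong to cohesin or its regulators. Without the trend the median of this list went from 0.15 to -0.06, and Pds5a, a cohesin regulator that was named after its values were seen, went from 0.43 to -0.07 and did not pass. Of 28 other kinetochore and checkpoint genes, 8 rose and 9 fell (28.6% and 32.1%, against the same 20.5% and 19.2%). The checkpoint genes Zw10 and Zwilch rose by 0.61 and 0.52 and Cenpl by 0.95, whereas Pmf1 and Nsl1, both of the MIS12 complex, fell by 0.74 and 0.67 and Cenpk fell by 0.61. Of 29 other spindle and cytokinesis genes, 8 rose and 3 fell (27.6% and 10.3%, against the same 20.5% and 19.2%). Ect2, the exchange factor that activates RhoA at the cleavage plane, rose by 0.73. Cit, the citron kinase gene, rose by 0.97 (0.57 without the trend), while Spag5, Vps4a and Kif3a fell by 0.47, 0.42 and 0.45. Clasp1 rose by 0.60 but stood at 0.04 without the trend.

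Regulators that act on these genes or on their products moved in both directions. Of 17 genes of the anaphase-promoting complex, 2 rose and 5 fell (11.8% and 29.4%, against 20.5% and 19.2% of all tested features). Cdc16, Anapc2 and Anapc5 fell by 0.69, 0.52 and 0.49, and Anapc15, which helps turn over the checkpoint complex, rose by 0.99. Anapc1 rose by 0.29, but stood at -0.20 without the trend and passed under 9 of 18 alternatives, whereas Cdc20 and Ube2c rose, as given above. The MuvB and DREAM complexes repress these promoters in resting cells and, with B-MYB, activate them later. Of 12 genes of these complexes, 4 rose and 4 fell (33.3% each, against the same 20.5% and 19.2%). The MuvB gene Lin9 fell by 0.48 ± 0.12, Rbbp4 fell by 0.41 (by 0.63 without the trend) and the pocket protein gene Rbl2 fell by 0.42, while E2f4 rose by 0.53, its partner gene Tfdp1 by 0.36 and Dyrk1a, the kinase that assembles DREAM, by 0.57 (0.36 without the trend). Rbl1 had an estimate of -0.01 and did not pass. Of the 3 NF-Y genes, whose products bind the CCAAT box, Nfyc rose by 0.92 ± 0.13, and Nfya had 0.12 and did not pass.

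Several genes that restrain the cell cycle, not only at entry into mitosis, were lower. Of 11 tested such genes, 6 fell and none rose, against 19.2% and 20.5% of all tested features; by edgeR, DESeq2 or limma-voom 0 were higher even at an unadjusted p under 0.05. Btg2, an antiproliferative gene, fell by 2.43 ± 0.17, from 62.5 ± 3.95 to 11.6 ± 3.15 CPM (SD, n = 3). Gadd45a and Gadd45b, stress sensors that can inhibit CDK1, fell by 1.81 and 1.62, and Cdkn1a, the gene of the CDK inhibitor p21, fell by 0.93 ± 0.10. Without the trend these 4 genes fell by 2.46, 1.82, 1.57 and 0.91. The median of the list was -0.40. Of 40 genes of G1, S phase entry and DNA replication, 6 rose and 12 fell (15.0% and 30.0%, against the same 20.5% and 19.2%). Their median was -0.12 (-0.21 without the trend). Of the 53 mitotic genes 28 rose and 1 fell, with a median of 0.33. No test compared the lists. The D-type cyclin genes Ccnd1 and Ccnd2 and the kinase gene Cdk6 were among those that rose, by 0.59, 0.90 and 0.67. Cdk6 stood at 0.25 without the trend, and did not pass when only the length part of it was taken out. Among those that fell, E2f1, Cdc45 and Gins4 fell by 0.63, 0.58 and 0.62.

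**Figure D5:**
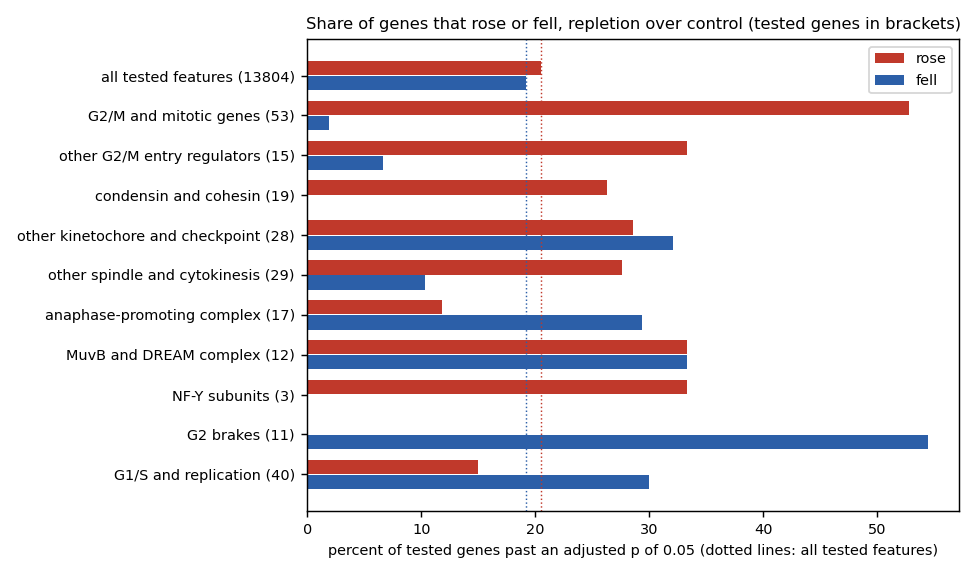
Percent of tested genes that rose (red) or fell (blue) in each list, with the number tested in brackets and dotted lines at the values for all tested features. The 53 mitotic genes have 52.8% rising and 1.89% falling. The genes that restrain the cell cycle, labelled G2 brakes, have 54.5% falling and none rising. The G1/S and replication list has 15.0% rising and 30.0% falling.

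Some values carry limits from shared sequence. Of the 53 genes, 18 share exonic bases with another annotated gene, and 9 of these rose (Ccna2, Ccnf, Plk1, Foxm1, Cdc20, Ube2c, Kif4, Prc1 and Top2a). Since the strand setting of the counting is not known, their reads and those of the partner cannot be told apart there. In 6 genes the partner held at least 10 CPM on average: Ccna2 (Exosc9), Cdc20 (Elovl1), Kif4 (Pdzd11), Nusap1 (Oip5), Kif20a (Cdc23) and Tacc3 (Tmem129). Ccnb1 was the only one of the 53 with near-identical copies among annotated transcripts, as searched here.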

How the data were processed

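RNA-seq counts of 6 samples were analysed, with groups taken from the sample titles. Per the submitters' processing notes, HISAT2 2.0.5, featureCounts 1.5.0-p3, DESeq2 1.20.0 and the build GRCm38.p6 were used; the step of each tool, the strand setting and the annotation release were not given in the sources used here. The deposited table holds raw counts per feature, whole numbers, per the file headers. The authors' FPKM, also deposited, served for levels between genes only. The authors' mean normalized count per group, a signal value per the file headers, was not used, and their deposited log2 fold change and adjusted p-value are quoted once. Positions are those of the deposited table; lengths are its feature lengths, and GC content is that of the longest GENCODE M21 transcript, found for 99.8% of Ensembl identifiers (features without one took the median in the trend fit).

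Features passing filterByExpr by group (13804 of 55232) were scaled with TMM factors (0.97 to 1.03) and tested with edgeR 4.0.16 in R 4.3.3: glmQLFit and glmQLFTest, group as the only term, two-sided, Benjamini-Hochberg adjustment over all tested features, threshold 0.05. Standard errors (SE) derive from the F statistic, 95% intervals from SE and the test's degrees of freedom. CPM are TMM-scaled unless said otherwise. The length and GC trend was removed as offsets from smooth terms (mgcv 1.9.3, basis of 8) fitted per library to log2 CPM deviations with a prior count of 2. Other alternatives were RLE, upper-quartile or no factors, DESeq2 1.42.0, limma-voom (limma 3.58.1), no filter, at least 1 CPM in 3 samples, protein-coding features, a block for the replicate number, and each replicate left out; removal of the length or the GC trend alone was added after seeing the data. Near-identical copies were sought with BLAST 2.17.0 (95% identity over at least 30% of the longest transcript). The test was tried on simulated counts.

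The 53 genes, the lists and the naming rule were chosen with earlier results of these data known. The rule names every one of the 53, at most 3 genes per direction by smallest p in each other list, and Cdkn1a, Lin9, Rbl1 and Nfya; values in every library are given for the 10 genes with the smallest p, the 5 most abundant per length and some chosen after their values were seen. Depth was 15582349 to 17817618 counts per library; intervals cover the spread between these 3 samples per group only.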

Additional observations from a re-analysis of the deposited data

How the results depend on the processing

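Of the 29 genes called among the 53, none changed direction under the 18 alternatives, and 18 of the 28 that rose, with Pttg1, passed under all of them. The number that rose ran from 20 to 30 over the fits that left out a replicate. In those fits 2195 to 2765 of all tested features rose, against 2830 with all 6 libraries. The median of the 53 genes ran from 0.26 (without control replicate 1) and 0.27 (without repletion replicate 3) to 0.35. With library size only the median was 0.39. It was 0.19 without the length and GC trend, 0.20 without the length trend and 0.21 without the GC trend, each with 2 genes falling; the added genes were Kif18a, Espl1 and Sgo1. Numbers shared between the groups were not shown to pair samples: same-numbered deviations correlated at -0.076, -0.033 and 0.055. With a replicate block 26 of the 53 rose and 1 fell, with Incenp and Prc1 lost, and 2485 and 2353 of all tested features passed. Estimates that changed sign were of genes that had not passed. Without the length and GC trend Bub3 stood at -0.156, Mad2l1 at -0.136, Ckap5 at -0.0085 and Kif18a at -0.258. Without the length trend alone Bub3, Mad2l1, Ckap5, Kif18a and Bub1 stood at -0.12, -0.15, -0.012, -0.22 and -0.010. Without the GC trend alone Bub3, Mad2l1, Kif18a and Bub1 stood at -0.10, -0.057, -0.12 and -0.045. With no filter Bub3 stood at -0.021 and Kif18a at -0.0094, and with library size only Ckap2 at 0.016. Over the fits that left out 1 replicate, estimates ran from -0.022 to 0.308 for Mybl2, -0.031 to 0.128 for Bub1, -0.058 to 0.115 for Bub3, -0.00243 to 0.115 for Mad2l1, -0.019 to 0.203 for Kif20a, -0.064 to 0.079 for Kif18a and -0.097 to 0.0084 for Ckap2. The median of the 7 related lists was -0.051 without the length and GC trend, -0.046 without the length trend and -0.048 without the GC trend. The cause of these changes was not tested.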

Other observations

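Of the 53 genes, 11 (20.8%) lie on chromosome 2, which holds 8.10% of all tested features. They are also more abundant than most features, with a median of 134 CPM against 24.1 over all tested features, so their folds rest on larger counts. Their median feature length of 4919 bases is above the 3999 of all tested features, and their median GC content of 46.3% is below the 49.1% of all. A second CCAAT match in the promoter window was present in 21 of their 48 windows (43.8%), against 11.7% of all windows. None of these values was tested.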
